A study of Mus musculus with 2 samples.

Results

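The cells described here are 249 skin cells in which Ly6c2, Plac8 and Lyz2 were detected together, 3 genes that mark classical monocytes in mice. They are called monocyte-like cells below, and they made up 6.56% of the 3797 cells that passed the cell filter (95% Clopper-Pearson interval 5.79 to 7.39%). A cell passed the filter with at least 500 genes, at least 1000 UMIs (distinct RNA molecules) and at most 10% of its UMIs on mitochondrial genes. A monocyte-like cell further had at least 1 UMI of Ly6c2, at least 1 of Plac8 and at least 5 of Lyz2, and no UMI of the Langerhans cell gene Cd207. It had fewer than 4 of the resident macrophage genes Folr2, Cd163, Lyve1, Cd209f, Cbr2 and Ednrb detected, and fewer than 20 UMIs of Col1a1, Col1a2 and Col3a1 per 10000. The cells came from shaved dorsal skin of male wild-type (WT) mice, sorted as F4/80+ MHCII-hi, with 1 library at 9 weeks and 1 at 108 weeks of age, each from 2 pooled mice. The labels name no transgene and no treatment. Both libraries stand in 1 matrix, marked by barcode suffix 1 or 2, and no source used here ties a suffix to an age. The ages can therefore not be told apart, and each suffix stands for 1 library whose age is not known, with suffix 1 always given first. With 1 library per age there is no replicate, no p-value was computed, and every interval covers counting error only.

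Classical monocytes leave the bone marrow through the chemokine receptor CCR2, circulate with high Ly6C on their surface, and enter tissues by crossing the wall of small venules. In skin they are known to lose Ly6C after entry and to gain MHC class II, and some go on to become macrophages or dendritic-like cells. Resident dermal macrophages instead carry the mannose receptor (Mrc1), complement C1q and scavenger receptors, and many lie along vessels.

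The matrix held 56204601 UMIs in 5257 barcodes, 35821853 and 20382748 in the 2 libraries, and 1 barcode sequence occurred with both suffixes but passed the filter in at most 1 of them. The monocyte-like cells held 3640273 UMIs, with a median of 12662 UMIs and 3132 genes per cell. They numbered 206 of 2396 cells (8.60%, interval 7.51 to 9.79%) in the suffix 1 library and 43 of 1401 (3.07%, 2.23 to 4.11%) in the suffix 2 library. Of the Lyz2 and resident-gene cells alone they were 14.1% and 9.95%, so the lower share in suffix 2 held in both denominators, with intervals that overlapped in the second (12.3 to 15.9% and 7.30 to 13.2%). When each cell was first thinned to 2000 UMIs, the share was 3.52%. The sort on F4/80 and MHC class II sets which cells can be counted, so these are shares of sorted cells.

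The rule kept 473 cells for Ly6c2, of which 385 had Plac8, 347 also enough Lyz2, 338 no Cd207, 254 fewer than 4 resident genes and 249 low collagen. Cells that failed on 1 part of the rule only numbered 84 for Ly6c2, 83 for the resident genes, 47 for Plac8, 34 for Lyz2, 6 for Cd207 and 5 for collagen. At the Lyz2 limit, 11 monocyte-like cells had 5 UMIs, and 5 cells with 4 UMIs were left out. Among the monocyte-like cells 86 had none of the 6 resident genes, 68 had 1, 55 had 2 and 40 had 3. The 40 cells with 3 resident genes had 1019 Ly6c2 UMIs per 1000000 UMIs (CPM), and the 29 cells left out with 4 had 938 CPM. Ccl8, a monocyte-attracting chemokine of resident macrophages, stood at 763 CPM inside this limit and 4032 CPM outside it. Ly6c2 was thus close on both sides of this limit while Ccl8 was not, and 60 monocyte-like cells also had both Cd209a and Mgl2, lectin genes of dermal dendritic-type cells. At least 5 UMIs of Spp1 together with at least 2 of Gpnmb were found in 8 monocyte-like cells.

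Ly6c2 reached a median of 13 UMIs per monocyte-like cell and a highest value of 149, Plac8 a median of 10 and a highest of 83, and Lyz2 a median of 41 and a highest of 644. Only 5 of the 249 cells had a single UMI of both Ly6c2 and Plac8. Summed over cells, Ly6c2 (ENSMUSG00000022584, chr15:75108158-75111970, minus strand, GENCODE vM21 on GRCm38) was at 1661 and 742 CPM in the 2 libraries. Ly6c2 is nearly identical to Ly6c1, and how reads are split between them is uncertain, as it is for Lyz1 and Lyz2. The cells were selected on the measured counts of these genes, of Cd207, of the 6 resident genes and of the 3 collagen genes, so the levels of these genes are a description.

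Cells of 3 other kinds, none of them monocyte-like, were set beside them, all without Cd207 and with low collagen. The 478 resident-gene cells (390 and 88) had at least 4 of the 6 resident genes, and 83 of them met every other part of the rule. The 687 Cd209a Mgl2 cells (516 and 171) had at least 1 UMI of each of those genes, and the 484 other Lyz2 cells (354 and 130) had at least 5 UMIs of Lyz2. Median depths were 12662 UMIs in monocyte-like, 9928.5 in resident-gene, 13717 in Cd209a Mgl2 and 9954.5 in other Lyz2 cells. As a rough guide to free RNA, 462 collagen-high cells without Ptprc (the CD45 gene), with a median of 14964.5 UMIs, are given where it matters. These cells also express genes of their own, with Gpnmb in 77.7% and Vcan in 61.0% of them, against 17.3% and 17.7% of monocyte-like cells. A level in them is therefore not a measure of free RNA alone. Because the rule chose the cells on the same counts, every difference between these groups is a description and not a test. A gene was counted as higher or lower when its CPM differed at least 2-fold in the same direction in each library, among genes at 20 CPM or more in 1 of the groups compared.

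Against resident-gene cells, 164 of 5748 genes were higher in monocyte-like cells (2.85%) and 254 were lower (4.42%). Against Cd209a Mgl2 cells the shares were 7.44% higher and 2.1% lower, and against other Lyz2 cells 2.76% and 2.48%. The median log2 ratio over all genes compared was 0.13, 0.27 and 0.18 in the 3 comparisons. List counts and list medians below are to be read against these shares and medians. The count of 164 higher genes depended on which cells entered, with 97 under a stricter cell filter, 382 without the 10% of each group with the most UMIs and 347 for means over cells, while the count of lower genes stayed within 1.5 times in these 3 settings.

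Ms4a4c was among the markers given for these cells in advance, and the gene lists were chosen with earlier results of these data known. The classical monocyte genes that the rule had not used are therefore a description and not a check of the label. Of 14 such genes, 8 were higher than in resident-gene cells (among them Ms4a4c, Chil3, Vcan, Hp, Thbs1, Ifitm6 and Clec4e) and 1 was lower (F13a1), with a median log2 ratio of 1.35. Their summed level differed less, 0.48 on the log2 scale (interval 0.46 to 0.50), with F13a1 and Cd14 abundant in resident-gene cells, and it was 0.94 without cells holding 2 or more UMIs of other cell type markers, which left 53 monocyte-like cells. Against both Cd209a Mgl2 and other Lyz2 cells 5 of the genes were higher and 0 lower, with median log2 ratios of 1.29 and 0.89.

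Ms4a4c, a tetraspan membrane protein gene of monocytes (chr19:11404770-11427246, plus strand), was at 795 and 714 CPM in monocyte-like cells. It was at 166 and 172 CPM in resident-gene cells, a log2 ratio of 2.21 (2.11 to 2.32), and at 78.0 and 110 CPM in Cd209a Mgl2 cells, a log2 ratio of 3.16. Both libraries of monocyte-like cells lay above every library of the other groups. Ms4a4c had a UMI in 94.0% of monocyte-like and 24.5% of resident-gene cells, and after thinning to 2000 UMIs in 69.8% and 10.2%. Collagen-high cells had it in 1.08% of cells, and after thinning in 0 of 441, which allows a share of cells with a UMI of up to 0.680% at 3 counts (Clopper-Pearson upper limit 0.833%).

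Ccr2, the receptor for monocyte chemoattractants, was at 672 and 304 CPM, against 246 and 191 in resident-gene cells. Its log2 ratio of 1.32 (1.23 to 1.42) came with less than 2-fold in suffix 2, so it was not counted as higher. Chil3, a chitinase-like protein gene of marrow-derived monocytes, was at 72.3 and 279 CPM against 19.3 and 45.5, and in 32.9% of cells. The suffix 1 and suffix 2 levels of Chil3 differed more than those of Ms4a4c.

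Thbs1, which encodes the matrix protein thrombospondin-1, was higher in both libraries, at 1617 and 1713 CPM against 510 and 690 in resident-gene cells. Its log2 ratio was 1.56 (1.50 to 1.63) over resident-gene, 2.14 over Cd209a Mgl2 and 1.57 over other Lyz2 cells. Collagen-high cells held 1065 CPM of Thbs1, and the part of free RNA in its level was not tested. F13a1, coagulation factor XIII, was at 237 and 317 CPM in monocyte-like cells and at 1408 and 1172 in resident-gene cells, a log2 ratio of -2.39 (-2.49 to -2.30).

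Non-classical monocyte genes were sparse. Only 3 of 10 reached 20 CPM, namely Nr4a1 at 103 and Adgre4 at 38.7 CPM over both libraries, and Cx3cr1. The summed list was at 234 and 180 CPM against 243 and 191 in resident-gene cells, a log2 ratio of -0.06 (-0.19 to 0.07). Cx3cr1, the fractalkine receptor, was at 24.5 and 8.87 CPM against 2.41 and 3.96 in resident-gene cells. The log2 ratio of Cx3cr1 was 2.88 (2.11 to 3.73). Over other Lyz2 cells Cx3cr1 had a log2 ratio of -0.01. Ace and Spn, which mark patrolling monocytes, stayed below 10 CPM in both libraries.

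**Figure D1:**
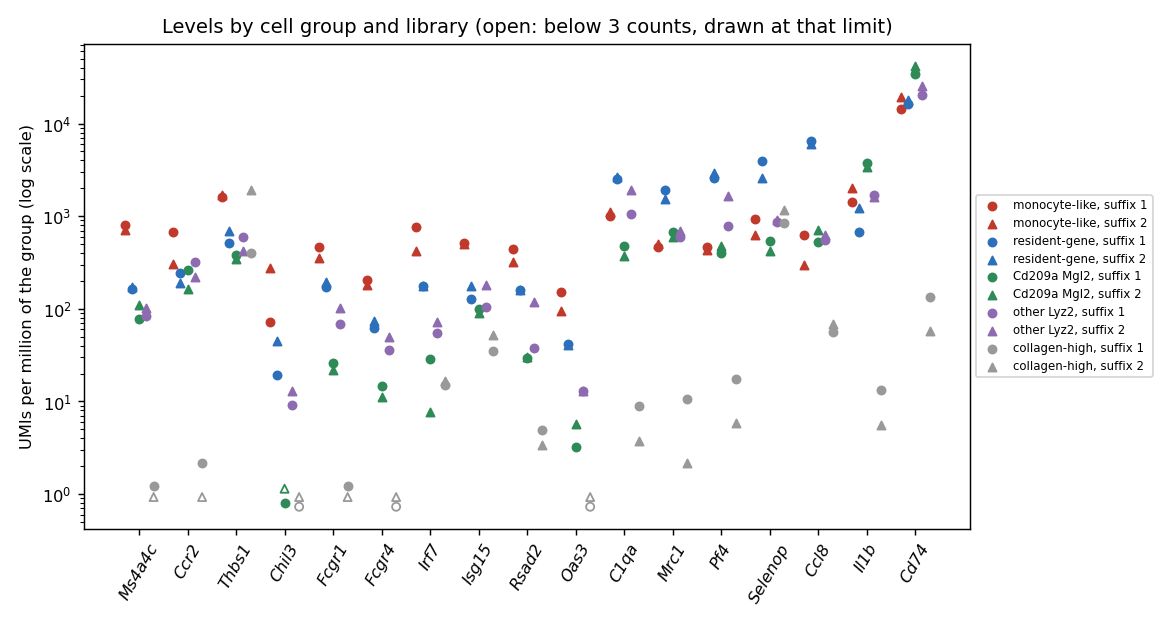
CPM (UMIs per 1000000, log axis) of 17 genes in monocyte-like, resident-gene, Cd209a Mgl2, other Lyz2 and collagen-high cells, with a circle for suffix 1 and a triangle for suffix 2. Open symbols lie below 3 counts and are drawn at that limit. Ms4a4c at 795 and 714 CPM and Fcgr1 at 470 and 350 CPM lie above all other groups in monocyte-like cells, and Pf4, Mrc1 and Ccl8 lie below the resident-gene cells.

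As a summed list, genes of the interferon response were higher in monocyte-like cells than in each of the 3 other groups. These genes are switched on when interferon binds its receptor, through factors that bind a repeated GAAA element in their promoters. Of 18 such genes compared, 8 were higher in monocyte-like than in resident-gene cells, 15 were higher than in Cd209a Mgl2 cells and 11 were higher than in other Lyz2 cells, and 0 were lower in any of the 3. The median log2 ratios were 1.38, 2.57 and 2.04. The summed list was at 3907 and 3011 CPM, against 1346 and 1542 CPM in resident-gene cells, a log2 ratio of 1.40 (1.36 to 1.44).

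Promoters of 4 of these genes are shown because they carry the repeat. Each sequence is the 250 bases before the transcription start, read in the direction of the gene, from RefSeq on GRCm38.p6, with each pair of GAAA letters that has any 2 bases between them, or the same with the reverse complement TTTC, in capitals.
Isg15 (chr4:156200819-156201068, minus strand): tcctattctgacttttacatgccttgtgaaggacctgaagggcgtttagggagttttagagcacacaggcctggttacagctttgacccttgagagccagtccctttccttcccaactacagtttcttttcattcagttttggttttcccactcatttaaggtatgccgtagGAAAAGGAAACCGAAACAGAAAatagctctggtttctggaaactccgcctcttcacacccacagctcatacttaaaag
Ifit3 (chr19:34583279-34583528, plus strand): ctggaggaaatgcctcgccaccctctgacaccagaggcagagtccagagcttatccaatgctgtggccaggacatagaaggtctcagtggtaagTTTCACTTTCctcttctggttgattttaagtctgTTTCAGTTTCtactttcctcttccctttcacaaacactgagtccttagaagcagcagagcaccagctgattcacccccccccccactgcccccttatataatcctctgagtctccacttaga
Oas3 (chr5:120777660-120777909, minus strand): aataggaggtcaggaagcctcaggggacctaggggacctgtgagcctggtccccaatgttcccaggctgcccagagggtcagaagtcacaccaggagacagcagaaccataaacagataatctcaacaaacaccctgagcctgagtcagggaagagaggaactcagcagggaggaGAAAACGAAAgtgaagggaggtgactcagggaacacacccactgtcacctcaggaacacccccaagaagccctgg
Rsad2 (chr12:26456453-26456702, minus strand): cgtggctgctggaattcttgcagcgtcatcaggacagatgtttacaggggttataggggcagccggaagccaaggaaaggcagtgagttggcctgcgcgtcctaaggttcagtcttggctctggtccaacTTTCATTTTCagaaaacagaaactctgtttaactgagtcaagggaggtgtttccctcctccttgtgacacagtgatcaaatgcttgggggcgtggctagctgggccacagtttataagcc
In Isg15 3 overlapping matches began 78, 72 and 66 bases before the start, in Ifit3 2 matches began at 156 and 122, in Oas3 1 at 75 and in Rsad2 1 at 120. Of 15 interferon genes found in the promoter table, 8 had a match (Bst2, Cxcl10, Gbp2, Ifit1, Ifit3, Isg15, Oas3 and Rsad2). Among all genes with a promoter sequence, 936 of 27025 (3.46%) had one, counting both strands and overlapping matches, and 978 of 32851 promoters (2.98%). These letters were in this window for 0 of 13 classical monocyte genes, Ly6c2 included, 0 of 5 MHC class II genes and 1 of 13 macrophage maturation genes, Selenop (7.69%).

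Irf7, the transcription factor that amplifies type I interferon, was at 760 and 417 CPM in monocyte-like cells. It was at 175 and 176 CPM in resident-gene cells, a log2 ratio of 1.94 (1.84 to 2.05), and at 28.6 and 7.63 CPM in Cd209a Mgl2 cells, a log2 ratio of 4.87. Both libraries of monocyte-like cells again lay above all others. A UMI of Irf7 was present in 91.2% of monocyte-like, 30.1% of resident-gene and 9.32% of Cd209a Mgl2 cells, and in 14.7% of collagen-high cells. After thinning these shares were 63.6%, 13.4%, 2.79% and 2.49%.

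Isg15, a ubiquitin-like modifier, was at 514 and 505 CPM against 129 and 178 in resident-gene cells, a log2 ratio of 1.86 (1.74 to 1.98). Oas3, a sensor of double-stranded RNA, was at 152 and 94.2 CPM against 41.6 and 40.9, a log2 ratio of 1.73 (1.51 to 1.95). In collagen-high cells Oas3 was at 0.273 CPM, while Isg15 had a UMI in 22.9% and Ifit3 in 6.71% of them, and the part of free RNA in these levels was not tested. Zbp1, a sensor of Z-form nucleic acid, was at 235 and 234 CPM against 64.0 and 84.4. Rsad2, the antiviral enzyme viperin, was at 443 and 322 CPM against 161 and 161, and 29.1% of its UMIs in monocyte-like cells lay in 3 cells. Ifit3 was at 92.8 and 73.1 CPM against 22.1 and 31.6, and its reads may be shared with the near copy Ifit3b. Cxcl9, also counted as higher, had 67.1% of its UMIs in 3 cells.

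Fc receptors for IgG differed by gene. Fcgr1, which encodes CD64 and is used to tell monocyte-derived cells from dendritic cells, was at 470 and 350 CPM in monocyte-like, 174 and 197 in resident-gene and 26.1 and 22.1 CPM in Cd209a Mgl2 cells. The log2 ratio over Cd209a Mgl2 cells was 4.14 (3.94 to 4.34), while that over resident-gene cells was 1.29 and fell short of 2-fold in suffix 2. Fcgr4 was at 203 and 179 CPM against 61.8 and 73.2 in resident-gene cells, a log2 ratio of 1.61 (1.43 to 1.79). The inhibitory receptor gene Fcgr2b was at 387 and 296 CPM against 594 and 511, and Fcgr3 at 270 and 223 CPM against 364 and 404, neither counted as different. Of 14 innate receptor genes 2 were higher than in resident-gene cells, Fcgr4 and the C-type lectin gene Clec4e, and 6 were higher than in Cd209a Mgl2 cells, with 0 lower in either.

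**Figure D2:**
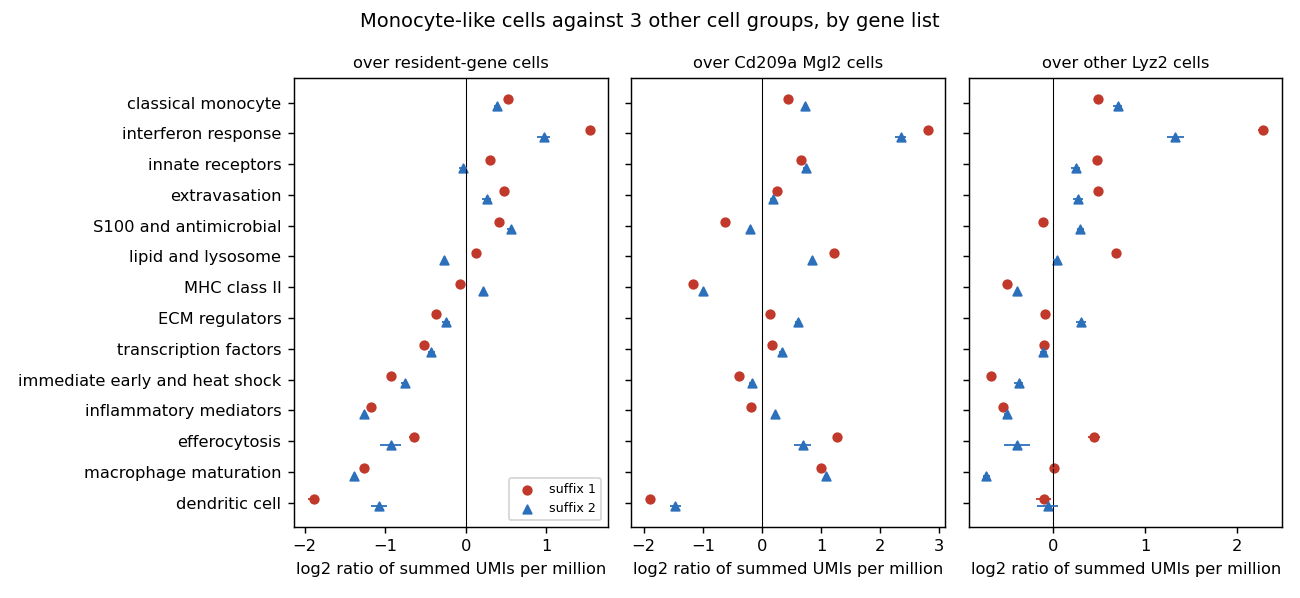
Log2 ratio of the summed CPM of 14 gene lists, monocyte-like cells over 3 other groups of cells, with suffix 1 as circles, suffix 2 as triangles and bars for 95% counting intervals. The interferon response list lies right of 0 in all 3 panels, and the macrophage maturation list changes side, at -1.29 over resident-gene and 1.03 over Cd209a Mgl2 cells for both libraries together.

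Genes of macrophage maturation placed the cells between the resident-gene and the Cd209a Mgl2 cells. Of 18 such genes, 9 were lower than in resident-gene cells (Csf1r, Mertk, C1qa, C1qc, Apoe, Mrc1, Gas6, Pf4 and Selenop) and 1 was higher (Axl), with a median log2 ratio of -1.04. Of 17 genes compared with Cd209a Mgl2 cells, 10 were higher and 0 lower, with a median of 1.14. Over other Lyz2 cells the summed list had a log2 ratio of -0.18, and only Fcgr1 was counted as higher.

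C1qa, a subunit of complement C1q, was at 1017 and 1102 CPM, against 2530 and 2652 in resident-gene and 478 and 373 in Cd209a Mgl2 cells. The log2 ratios were -1.30 (-1.35 to -1.25) and 1.20 (1.14 to 1.27). A UMI of C1qa was seen in 61.0% of monocyte-like cells, 99.6% of resident-gene cells and 30.6% of Cd209a Mgl2 cells, and in 5.84% of collagen-high cells. Pf4, the chemokine platelet factor 4 that dermal macrophages also express, was at 467 and 436 CPM against 2585 and 2920, a log2 ratio of -2.54 (-2.61 to -2.47). Mrc1 was at 466 and 499 CPM against 1895 and 1524, a log2 ratio of -1.93. The receptor gene Csf1r was less different, at 360 and 321 CPM against 819 and 691. Adgre1, which encodes the F4/80 protein used in the sort, was at 427 and 319 CPM and had a UMI in 90.0% of cells.

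The apoptotic cell receptors went different ways. Axl was at 162 and 78.7 CPM against 47.1 and 33.6 in resident-gene cells, a log2 ratio of 1.69 (1.48 to 1.91), and it was at 206 CPM in collagen-high cells. Mertk was at 22.3 and 8.87 CPM against 55.9 and 27.0. Their bridging ligand gene Gas6 was at 63.6 and 45.4 CPM against 660 and 419, a log2 ratio of -3.34 (-3.55 to -3.15).

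Inflammatory mediators were split by gene. Of 24 compared with resident-gene cells, 7 were lower and 1 was higher, with a median log2 ratio of -0.76. The chemokine genes Ccl2, Ccl7, Ccl8, Ccl12, Ccl24, Ccl3 and Cxcl1, which draw monocytes, eosinophils and neutrophils, made up the lower ones. Ccl7 was at 738 and 1085 CPM against 4282 and 5117, a log2 ratio of -2.45 (-2.50 to -2.39). Ccl8 was at 622 and 296 CPM against 6458 and 6021, and 3 monocyte-like cells held 47.0% of its UMIs. Il1b, the cytokine interleukin-1 beta, was at 1424 and 2039 CPM in monocyte-like, 674 and 1214 in resident-gene and 3778 and 3401 in Cd209a Mgl2 cells. It was the reverse of the chemokines in direction over resident-gene cells, with a log2 ratio of 0.96 (0.91 to 1.02) that was not counted as higher. The 1 gene that was higher, Ccl22, had 95.1% of its UMIs in 3 cells, on which its value rests.

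Matrix genes were more often lower and migration genes more often higher than in resident-gene cells. Of 25 ECM regulators, 2 were higher (Vcan and Thbs1) and 7 lower than in resident-gene cells, with a median log2 ratio of -0.12. Mmp9, a gelatinase, was at 4.75 and 14.4 CPM against 156 and 200, and Timp2, a metalloproteinase inhibitor, was at 220 and 219 CPM against 828 and 709. Of 20 extravasation genes 3 were higher, among them Itgb7 and Cx3cr1, and 0 lower, with a median log2 ratio of 0.57. Itgb7, the beta 7 integrin chain, was at 62.5 and 102 CPM against 21.0 and 33.0. Cxcr4, the receptor of CXCL12, was at 269 and 191 CPM against 126 and 135 and was not counted as higher.

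Genes of lipid handling and lysosomes differed mainly from the Cd209a Mgl2 cells. Of 15 genes, 2 were higher and 2 lower than in resident-gene cells, and 7 were higher and 1 lower than in Cd209a Mgl2 cells, where the median log2 ratio was 1.30. The 2 higher over resident-gene cells were Fabp4 and Fabp5, and Fabp4, with 69.1% of its UMIs in 3 cells, fell from 426 to 63.6 CPM and was no longer counted without 9 cells described below. Plin2, which coats lipid droplets, was at 1550 and 834 CPM in monocyte-like and at 160 and 123 in Cd209a Mgl2 cells, a log2 ratio of 3.19 (3.11 to 3.28). Hmox1, the heme-degrading enzyme, was at 866 and 808 CPM against 2485 and 3078 in resident-gene cells. Among 24 transcription factors 1 was higher than in resident-gene cells, Runx3, and 2 were lower, which became 5 lower without the same 9 cells. Over all genes compared with resident-gene cells, 2.85% were higher and 4.42% lower. Runx3 was at 193 and 207 CPM against 76.9 and 53.4, a log2 ratio of 1.47 (1.29 to 1.64).

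Beyond the lists, the genes with the highest ratios over resident-gene cells at 50 CPM or more included Ass1, an enzyme of arginine synthesis, at 62.5 and 63.2 CPM against 7.23 and 15.8, a log2 ratio of 2.74 (2.32 to 3.19). They also included Slfn1, a schlafen gene, at 125 and 93.1 CPM against 24.1 and 34.9, Napsa, an aspartic protease gene, at 150 and 201 CPM against 27.8 and 67.3, and Sema4d, a semaphorin gene, at 150 and 113 CPM against 39.2 and 21.8. Ccl5, a T cell and monocyte chemokine, was at 71.2 and 152 CPM against 19.7 and 23.1, with 39.5% of its UMIs in 3 cells. Gm9733, Gm5150 and Sirpb1c had log2 ratios of 3.21, 2.19 and 2.11, and they are similar members of 1 family, so that how reads were split among them is uncertain. At the other end stood Cxcl13, C6, Cd209g, Cd209b and C4b, with log2 ratios of -7.24, -6.87, -4.91, -4.58 and -4.40, beside the resident genes of the rule itself. The Cxcl13 value rests on 3 UMIs in monocyte-like cells, all in suffix 2, and its levels in resident-gene cells were 15.3 and 454 CPM. The C6 value rests on 2 UMIs in monocyte-like cells, with an interval of -9.92 to -5.00. C4b, complement C4, was at 14.6 and 21.1 CPM against 367 and 270.

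Neutrophil, T cell and B cell markers were checked because Ly6c2, Plac8 and interferon genes also occur in other leukocytes. S100a8 and S100a9, the calprotectin genes of neutrophils, had 0 UMIs in the 3640273 of the monocyte-like cells, which allows a level of up to 0.824 CPM, while all cells that passed the filter held 649 and 807 UMIs of them. Camp, Ngp, Cxcr2, Ly6g and Elane were at 0 too. Of 10 T and NK cell markers 6 were at 0, among them Cd3e, Cd3d, Cd3g, Nkg7 and Gzma, and of 6 B cell markers 3 were at 0, among them Cd79a and Igkc. Both lists had 1 gene above 20 CPM. Il7r, the interleukin-7 receptor gene, was at 119 and 164 CPM and in 82 monocyte-like cells, against 63.5 and 91.7 CPM in resident-gene and 287 and 375 in Cd209a Mgl2 cells. Ighm, the IgM heavy chain gene, was at 163 and 98.6 CPM and in 165 cells, against 209 and 108 CPM in resident-gene cells and 52.4 CPM over both libraries in Cd209a Mgl2 cells, over which it was counted as higher. The B cell list had 2 or more UMIs in 45.4% of monocyte-like, 52.7% of resident-gene and 1.08% of collagen-high cells, and its part in the results was not tested. Of the neutrophil list, Csf3r, the G-CSF receptor gene that monocytes share, had 222 UMIs in 125 monocyte-like cells.

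Markers of skin structural and mast cells did occur. The fibroblast list, with the collagen genes of the rule in it, summed to 268 and 94.2 CPM, with 7.20% of its UMIs in 3 cells. It had 2 or more UMIs in 67.1% of monocyte-like, 74.5% of resident-gene and 69.3% of Cd209a Mgl2 cells, and its part in the results was not tested. Mast, endothelial and mural cell markers lay mostly in few cells, though 14.5% of monocyte-like cells had 2 or more endothelial UMIs. The mast cell list summed to 112 and 191 CPM with 96.9% of its UMIs in 3 cells, the endothelial list to 231 and 124 CPM with 66.2% in 3 cells, and the mural cell list to 53.0 and 137 CPM with 78.8% in 3 cells. In all, 9 monocyte-like cells (5 and 4) held 10 or more UMIs of the mast, endothelial or mural cell list. Of them 7 held endothelial, 5 mural and 2 mast cell markers. Mcpt4, a mast cell protease gene with a log2 ratio of 3.52 over resident-gene cells, had 98.2% of its UMIs in 3 cells and was at 1.48 CPM in place of 62.4 without the 9 cells. No doublet caller was run here. Without such cells in either group the interferon list had 9 genes higher in place of 8, the macrophage list had 9 lower and 1 higher, and the classical monocyte list had 7 higher and 2 lower, Clec4e no longer counting and Mgst1 now lower.

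Of 12 cell division genes, 3 reached 20 CPM in monocyte-like cells, and 0 were higher or lower than in resident-gene cells. The list summed to 412 and 469 CPM against 387 and 330, a log2 ratio of 0.19 (0.099 to 0.29), and to 426 and 380 CPM in Cd209a Mgl2 cells. Mki67, a proliferation marker, was at 12.8 and 14.4 CPM and was counted as lower than in Cd209a Mgl2 cells. It had a UMI in 10.8% of monocyte-like, 6.07% of resident-gene, 19.1% of Cd209a Mgl2 and 0.216% of collagen-high cells, and after thinning in 2.89%, 1.27% and 5% of the first 3. Top2a, a DNA topoisomerase gene of dividing cells, was in 9.64%, 3.77%, 5.82% and 0.433%, and after thinning in 1.65%, 0.849% and 0.882%, so the order of the groups was not the same for both genes. Genes known to respond to stress during tissue digestion were not higher. Of 9 immediate early and heat shock genes, 0 were higher and 3 lower than in resident-gene cells, with Fosb at 307 and 311 CPM against 1586 and 1106, and Hspa1a at 73.8 and 211 CPM against 370 and 657.

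MHC class II genes, which present peptides to helper T cells and whose protein was a gate of the sort, varied widely among the monocyte-like cells, as they did among the resident-gene cells. The 8 genes summed to 32589 and 44729 CPM, against 34330 and 38456 in resident-gene cells, a log2 ratio of 0.01 (-0.00 to 0.02), with 0 genes higher or lower. The 2 libraries fell on opposite sides, at -0.08 and 0.22, and thinning to 2000 UMIs gave 0.23. In Cd209a Mgl2 cells the list was at 73390 and 88998 CPM, a log2 ratio of -1.12, with 3 genes lower in monocyte-like cells (H2-Ab1, Cd74 and H2-DMb2). Per cell, the sum of H2-Aa, H2-Ab1, H2-Eb1 and Cd74 ran from 2.04 to 1044 UMIs per 10000, with quartiles of 163 and 430 and a median of 303 (284 and 377). In resident-gene cells the range was 1.88 to 958 and the quartiles were 185 and 488. The median was 332 in resident-gene, 734 in Cd209a Mgl2, 561 in other Lyz2 and 1.98 in collagen-high cells, so the lowest monocyte-like cells were close to the collagen-high median.

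**Figure D3:**
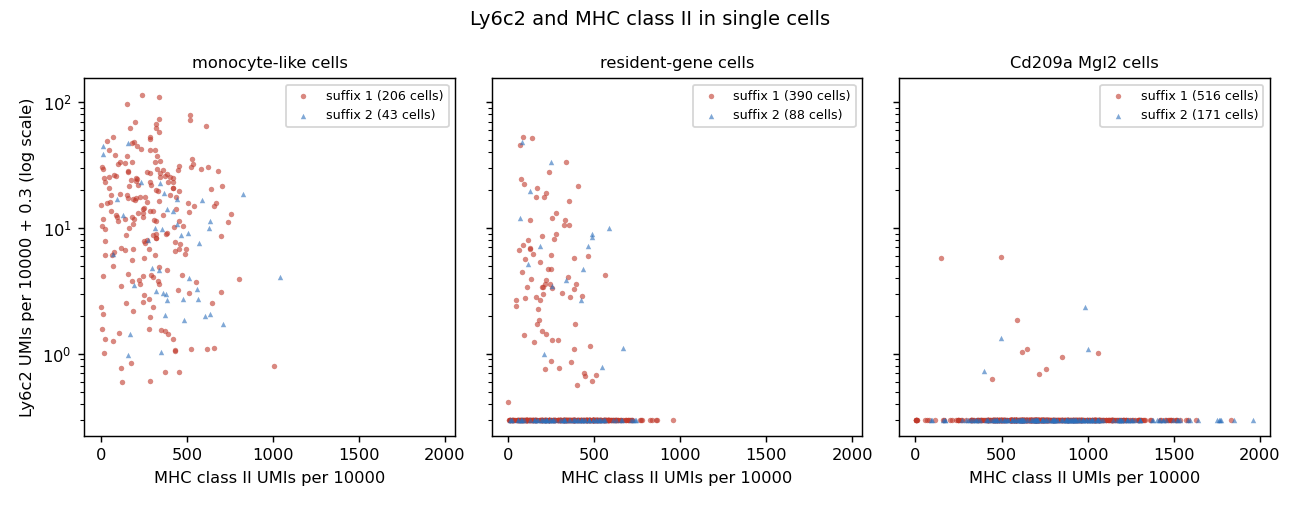
Ly6c2 UMIs per 10000 plus 0.3 (log axis) against MHC class II UMIs per 10000 in single monocyte-like, resident-gene and Cd209a Mgl2 cells, with suffix 1 as circles and suffix 2 as triangles. Monocyte-like cells spread from 2.04 to 1044 on the MHC class II axis, and 20.1% of resident-gene and 2.04% of Cd209a Mgl2 cells had any Ly6c2.

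To describe this range, the monocyte-like cells were put in tertiles of 83 by that sum, from 2.04 to 203, 206 to 374 and 375 to 1044 UMIs per 10000. The tertiles held 9, 12 and 22 suffix 2 cells and had median depths of 9922, 11548 and 15904 UMIs, and the part of depth in the values below was not tested. Of 5347 genes at 20 CPM or more, 159 were at least 2-fold higher in the highest than in the lowest tertile (2.97%) and 302 at least 2-fold lower (5.65%), with both libraries pooled.

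With MHC class II, genes of dendritic-type cells were higher. Cd209a, a C-type lectin gene, went from 42.7 to 196 and 372 CPM over the 3 tertiles, a log2 ratio of highest over lowest of 3.12 (2.66 to 3.62). It was 3.08 in suffix 1 and 2.44 in suffix 2 alone. Mgl2 went from 52.3 to 210 and 494 CPM, a log2 ratio of 3.24 (2.82 to 3.69). Flt3, the growth factor receptor of dendritic cells, went from 4.27 to 16.4 and 38.8 CPM, from 4 UMIs in the lowest tertile. Ciita, the master activator of MHC class II, went from 17.1 to 23.4 and 44.6 CPM. Lyz1 went from 39.5 to 337 and 881 CPM, with the doubt about Lyz2 reads given above. It was at 268 CPM in suffix 1 and 1169 CPM in suffix 2, and the tertiles held 9, 12 and 22 suffix 2 cells. The part of library in this rise of Lyz1 was not tested. Of 6 dendritic cell genes at 20 CPM, 5 were at least 2-fold higher in the highest tertile and 0 lower.

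Against MHC class II ran genes of lipid handling, where 10 of 15 were at least 2-fold lower in the highest tertile and 0 higher. The list fell from 20559 to 15928 and 10362 CPM over the tertiles. Ctsd, cathepsin D of lysosomes, went from 2219 to 1245 and 674 CPM, a log2 ratio of -1.72 (-1.83 to -1.61), at -1.66 in suffix 1 and -1.14 in suffix 2. Trem2, a lipid-sensing receptor gene of the macrophage maturation list and not of the lipid list, went from 180 to 86.5 and 56.9 CPM, a log2 ratio of -1.66 (-2.05 to -1.28). Of 17 macrophage maturation genes at 20 CPM, 4 were at least 2-fold lower in the highest tertile and 0 higher. Their list had a log2 ratio of -0.41, with opposite signs in suffix 1 (-0.44) and suffix 2 (0.50). Cd36, a fatty acid and scavenger receptor gene, went from 783 to 449 and 200 CPM, and Gpnmb, a glycoprotein gene of lipid-laden macrophages, from 224 to 54.5 and 26.5 CPM. Gpnmb differed less in suffix 2, with a log2 ratio of -0.62 and an interval that held 0. It had a UMI in 43 of 249 monocyte-like cells. The part in these values of the 8 cells with Spp1 and Gpnmb named above was not tested. Ccl8, of the inflammatory mediator list, went from 1157 to 579 and 140 CPM, with the concentration in few cells named above. Of 22 genes of that list at 20 CPM, 4 were at least 2-fold higher in the highest tertile and 3 lower.

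Fabp4, a fatty acid binding protein gene also of endothelial cells, went from 1317 to 164 and 81.5 CPM, a log2 ratio of -4.02 that became -1.63 without the 9 cells with markers of other cell types. The endothelial list as a whole went from 602 to 90.8 and 49.1 CPM, and its log2 ratio of -3.61 became 0.01 without them. For Cd209a, Mgl2, Trem2 and Ctsd the values without these cells were 2.96, 3.17, -1.76 and -1.84.

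The monocyte genes went different ways over the same range. Their list, the genes of the rule included, went from 14219 to 14754 and 20528 CPM, a log2 ratio of 0.53 (0.50 to 0.56) that was 0.64 in suffix 1 and 0.096 in suffix 2. Lyz2, a gene of the rule, weighs heavily in this sum. With the 9 cells left out and tertiles drawn anew, Lyz2 was at 4595 CPM in the lowest and 10057 CPM in the highest tertile. The other 2 genes that the rule required, Ly6c2 and Plac8, had log2 ratios of -0.51 and -0.21 there. The list is not given here without the genes of the rule. Of 16 genes at 20 CPM, 3 were at least 2-fold higher in the highest tertile, namely Lyz2 at 1.13, Vcan at 1.83 and Cd14, a lipopolysaccharide co-receptor gene, at 1.01. Vcan was at 13.1 CPM in suffix 1 and 109 CPM in suffix 2, and the part of library in its ratio was not tested. Ms4a4c had a log2 ratio of 0.15 (0.01 to 0.29), Ly6c2 of -0.44 (-0.54 to -0.35), and Ccr2 of -0.38. Outside the list, Fcgr1 was at -0.30, Irf7 at -0.56 and Isg15 at 0.00. Within suffix 2 alone, with 9 cells in the lowest tertile, Ms4a4c was at 1.21 and Isg15 at 1.04, while in suffix 1 they were at 0.02 and -0.25. Chil3 was the 1 gene of the list at least 2-fold lower in the highest tertile, at -1.44, and this became -0.35 without the 9 cells.

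**Figure D4:**
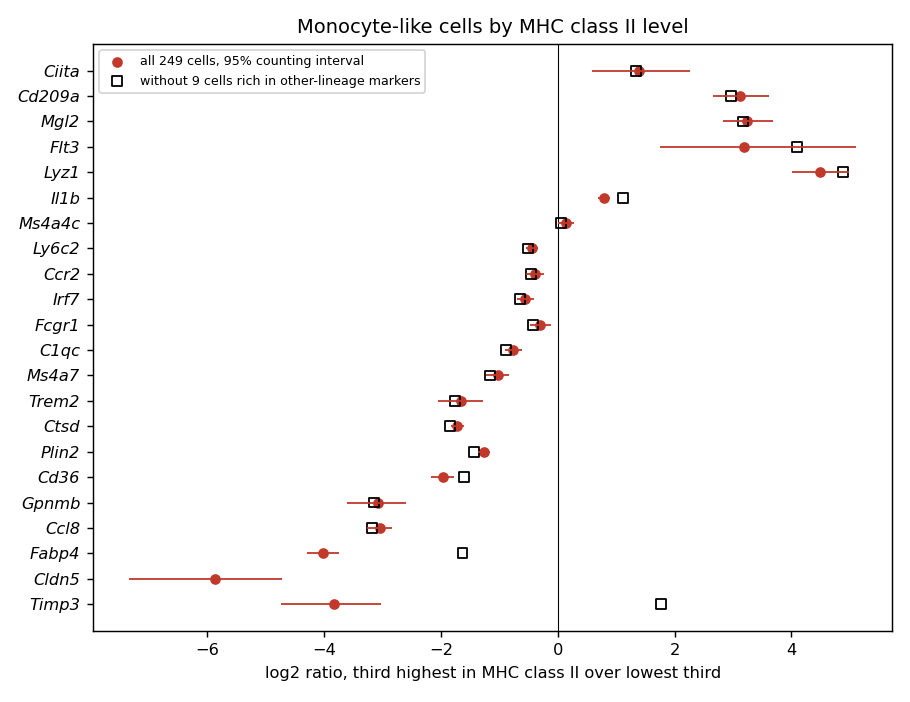
Log2 ratio of CPM, the tertile of monocyte-like cells highest in MHC class II over the lowest tertile, for 22 genes. Filled points with bars are all 249 cells with 95% counting intervals and open squares leave out 9 cells rich in markers of other cell types. Mgl2 (3.24) and Cd209a (3.12) lie at the right, Ms4a4c (0.15) and Ly6c2 (-0.44) near 0, and Ctsd (-1.72) and Gpnmb (-3.08) at the left, and Cldn5 has no square.

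The monocyte-like cells of the 2 libraries differed in a limited set of genes. Of 1735 genes at 100 CPM or more in 1 of the libraries, 26 were at least 2-fold higher in suffix 1 (1.5%) and 16 in suffix 2 (0.922%). Higher in suffix 1 were Sparc at 136 and 27.7 CPM and Retnla, a secreted resistin-like protein gene, at 1055 and 219 CPM. Also higher there were the lipid-handling genes Spp1 at 159 and 39.9, Gpnmb at 103 and 34.4 and Lpl at 1057 and 419. Spp1 had a UMI in 21.7% and Gpnmb in 17.3% of monocyte-like cells. Higher in suffix 2 were Lyz1 at 268 and 1169 CPM, Chil3 at 72.3 and 279, Vcan, the proteoglycan versican, at 13.1 and 109, Mmp19, a matrix metalloproteinase gene, at 307 and 864, and Cd209a at 169 and 419. Areg, the growth factor amphiregulin, was at 11 and 129 CPM, with 61.6% of its UMIs in 3 cells. Chil3 had 39.8% of its UMIs in 3 cells, and without the 9 cells with markers of other cell types it was at 75.5 and 128 CPM, less than 2-fold apart.

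Some of these library differences were shared by other cells and some were not. Lyz1 had a log2 ratio of suffix 1 over suffix 2 of -2.12 in monocyte-like and -2.16 in resident-gene cells but 0.33 in Cd209a Mgl2 cells. Retnla had 2.27 in monocyte-like, 0.43 in resident-gene and 1.92 in Cd209a Mgl2 cells, and Lpl 1.34, -0.25 and 0.67. Spp1 had 1.99, 0.18 and 1.43, and Sparc 2.29, 2.68 and 1.56. The fibroblast list, with the collagen genes of the rule in it, had 1.51, 2.26 and 1.58. The MHC class II list was lower in suffix 1 in all 3 groups, at -0.46, -0.16 and -0.28. The interferon list was 0.38 in monocyte-like cells, against -0.20 in resident-gene and -0.08 in Cd209a Mgl2 cells. Age, animals, capture and library cannot be told apart in these differences.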

How the data were processed

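The authors deposited UMI counts per gene and cell, not normalized, of both libraries in 1 matrix (3' chemistry v3.1, HiSeq X). Per the labels, reads were processed with Cell Ranger 4.0.0 on mm10, and no source says whether cells were filtered before deposit. A barcode suffix separates the libraries but is tied to no age, so ages were not compared. Counts were filtered, gated and summed per group and library in Python 3.11.15 (numpy 2.4.6, pandas 2.3.3, scipy 1.17.1, matplotlib 3.10.9), and CPM is a gene's sum divided by the group's sum. Log2 ratios have exact conditional 95% intervals, levels exact Poisson and shares Clopper-Pearson intervals, for counting error only, and a count of 0 was set to a limit of 3 counts. The script was tested on simulated data with known changes. Doublets were not called, and leaving out the 10% of cells with the most UMIs was an alternative. For shares of cells with a UMI, cells were also thinned to 2000 UMIs, which left 242 of 249 monocyte-like cells. Gene positions are from GENCODE vM21 (32235 of 32285 identifiers matched), promoters from RefSeq on GRCm38.p6. The monocyte-like cells and the gene lists were chosen with earlier results of these data known. Named genes are those of the lists at 20 CPM or more and defining markers below it, the 15 highest and lowest ratios over resident-gene cells at 50 CPM or more in the higher group with the same direction in each library, and the 10 largest library ratios each way at 100 CPM or more. Genes shown for the tertiles of MHC class II level were chosen from the lists after their values were seen. Alternatives changed the cell filter, the rule's minimums, depth, library, high-UMI cells, other cell type markers, weighting, comparison cells, the level minimum and the scaling. Some genes of the lists enter the counts but are not reported here by name.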

Additional observations from a re-analysis of the deposited data

Results flagged for a closer look

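The log2 ratio of monocyte-like over resident-gene cells had opposite signs in the 2 libraries for 14 of the named genes, with intervals that left out 0 in both, and whether the libraries differ was not tested. Spp1, Lpl and Ctsd of the lipid and lysosome list, and the chemokine genes Ccl6 and Ccl9, were positive in suffix 1 and negative in suffix 2. Cd9 of the same list went the other way. Spp1, osteopontin, was at 0.93 in suffix 1 and -0.89 in suffix 2. Lpl, lipoprotein lipase, was at 1.06 and -0.52, and Ctsd, cathepsin D, at 0.82 and -0.19. Ccl6 was at 0.53 and -0.61, and Ccl9 at 0.38 and -0.38. Ms4a7, a macrophage membrane protein gene, was at 0.37 and -0.30. Cebpa, a myeloid transcription factor, was at 0.43 and -0.44, and the receptor gene Tlr2 at 0.40 and -0.42. Ccr7, the receptor that guides dendritic cells to lymph nodes, was at 1.70 and -1.01, with a UMI in 12 monocyte-like cells and 78.9% of its UMIs in 3 of them.

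In the other direction went MHC class II genes, with H2-Aa at -0.12 in suffix 1 and 0.20 in suffix 2 and Cd74, the invariant chain, at -0.18 and 0.10. Ccr1, a chemokine receptor gene, was at -0.41 and 0.38, and Fos, an immediate early gene, at -0.23 and 0.15. Cd9, a tetraspanin gene of the lipid and lysosome list, was at -0.59 and 0.68. The suffix 2 values rest on 43 monocyte-like and 88 resident-gene cells.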

How the results depend on the processing

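No paired analysis was possible because each age has 1 library and no result comes from a test. The share of monocyte-like cells, 6.56%, was 9.64% with at least 1000 genes, 2000 UMIs and at most 5% mitochondrial UMIs, 5.51% with the looser filter, 5.58% with 2 UMIs of Ly6c2 and Plac8, 3.52% thinned to 2000 UMIs, 4.89% without cells holding 2 or more UMIs of other cell type markers (below, the narrow marker limit), 7.78% without those holding 10 or more (the wide marker limit, chosen after seeing the data), 8.60% in suffix 1 and 3.07% in suffix 2. The classical monocyte list (0.48 on the log2 scale) was 0.38 under the stricter filter, 0.52 with 2 UMIs of Ly6c2 and Plac8, 0.58 thinned, 0.52 in suffix 1, 0.39 in suffix 2, 0.59 without the top 10% in UMIs, 0.94 under the narrow marker limit, 0.61 as a mean over cells and 0.54 over other Lyz2 cells. The macrophage maturation list (-1.29) was -1.09 stricter, -1.31 looser, -1.40 thinned, -1.26 and -1.38 in suffix 1 and 2, -1.48 without the top 10% in UMIs, -1.57 under the narrow marker limit, -1.27 under the wide marker limit, -1.51 as a mean and -0.18 over other Lyz2 cells. The MHC class II list (0.01) was -0.047 stricter, 0.033 with 10 UMIs of Lyz2, 0.028 with 2 of Ly6c2 and Plac8, 0.23 thinned, -0.075 and 0.22 in suffix 1 and 2, -0.012 without the top 10% in UMIs, -0.051 under the narrow marker limit, -0.11 as a mean and -0.46 over other Lyz2 cells. The 164 higher genes became 97 stricter, 359 thinned, 384 and 311 in suffix 1 and 2 (where 1 library decides), 382 without the top 10% in UMIs, 499 under the narrow marker limit, 347 as a mean and 306 with no minimum level. The 254 lower genes became 398 and 388 in suffix 1 and 2, 143 over other Lyz2 cells and 441 with no minimum level.

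For 56 named genes the ratio was recomputed under each setting, and it reversed 12 times in all. It was counted as moved without reversing 371 times and as the same 288 times. Of the 56 genes, 46 moved under the stricter filter, 48 thinned, 50 without the top 10% in UMIs and 50 as a mean. Under the looser filter 0 moved, and under the wide marker limit 3 did. The printed ratios of single genes therefore depend on the setting more than their counting intervals show. Over other Lyz2 cells the reversals were Cx3cr1 at -0.010, Mertk 0.25, Il1b -0.087, Fabp4 -0.040 and Lpl -0.30. In suffix 2 they were Ms4a7 at -0.30, H2-Aa 0.20, Cd74 0.10 and Lpl -0.52, thinned H2-Aa at 0.24 and Cd74 0.079, and under the narrow marker limit Fabp4 at -0.65. Over the tertiles of MHC class II level, whose alternatives were all chosen after seeing the data, the endothelial list went to 0.0059 under the wide marker limit and the interferon list to 0.34 in suffix 2 with tertiles drawn anew. The cause was not tested for any of these. Depth limits the suffix 2 values, which rest on 902363 UMIs of 43 cells, where 3 counts are 3.32 CPM.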
